A study of Mus musculus with 12 samples.

Results

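Ctla2a and Ggt5 were followed in the 12 single-cell libraries of the series, as the 2 rows of 27998 genes that carry these symbols. They were selected on their rise with 17beta-estradiol (E2) in the fibroblasts that express Dpp4 and Pi16, so in those cells the E2 values are given as a description with no test. The cells came from the 4th mammary gland of female C57BL/6J mice aged 43 weeks, with 1 library per group. In 11 of the 12 groups the ovarian follicles had been depleted with 4-vinylcyclohexene diepoxide (VCD, 160 mg/kg/day for 15 days), a model of ovarian failure in which the animals keep their ovaries. The library Intact received no VCD. E2 (1 µg per animal and day) was injected alone or with progesterone (P4, 1 mg per animal and day) for 1 week, and sesame oil was the vehicle. Each hormone state, none, E2, or E2 with P4, was combined with no, low or high exposure to polybrominated diphenyl ethers (PBDE), which are flame retardants. Low PBDE was PBDE-47, PBDE-100 and PBDE-153 at 0.05, 0.0028 and 0.0063 mg/kg/day for 20 weeks, and high PBDE was 1, 0.056 and 0.126 mg/kg/day for 1 week, so dose and duration cannot be told apart. The groups without PBDE ate a matched food with the solvent DMSO. VCD_Vehicle_NormEnv was a vehicle group with possible environmental exposure from cage plastics, and VCD_E2_ICI received E2 and a single injection of 5 mg of the oestrogen receptor antagonist ICI (fulvestrant). How many mice each library pooled is not given in the sources used here.

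Ctla2a encodes cytotoxic T lymphocyte-associated protein 2 alpha, a small protein that resembles the propeptide of cathepsin L, inhibits cathepsin L-type cysteine proteases and was first described in activated T cells. Ggt5 encodes gamma-glutamyltransferase 5, a membrane enzyme of the glutathione pathway that removes the gamma-glutamyl group from glutathione conjugates, cysteinyl leukotrienes among them. Fibroblasts that express Dpp4 and Pi16 are connective tissue cells found around vessels and in the interlobular stroma. Oestrogen acts in the mammary gland through the receptor encoded by Esr1, on epithelium directly and on stroma both directly and by way of other cells.

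The 12 libraries held 41737881 to 109224969 UMIs (unique molecular identifiers, each counting 1 captured transcript), and 46257 of 58620 barcodes passed the filters, with a median of 11843 to 20446 UMIs per cell. Clusters of fibroblasts were named from markers. The 12268 Dpp4 Pi16 fibroblasts (733 to 1609 per library) matched their name: Pi16 was at 3742 CPM (UMIs of the gene per 1000000 UMIs of the summed cells) against 92.6 CPM in the other 3 named fibroblast populations together, and Dpp4 was at 536 CPM against 44.0 CPM. Those other populations were 8801 Fabp4, 3416 Tnc and 3375 Gdf10 fibroblasts. The library VCD_Low_E2_P4 stood apart, with 10006 barcodes, the lowest median of UMIs per cell, and 212 of the 382 endothelial-like cells. At most 15 barcodes were shared by a pair of libraries.

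In the genome (GRCm38/mm10), Ctla2a lies on the minus strand at chr13:60934155-60936625, with 1 coding transcript of 5 exons among its 9 transcripts. Its near copy Ctla2b lies 36707 bases away at chr13:60895350-60897447, on the same strand. Ggt5 lies on the plus strand at chr10:75589340-75617200, with 3 coding transcripts of 2 to 12 exons among its 7, and 3139 bases from Ggt1 at chr10:75561604-75586200. The transcripts of Ctla2a and Ctla2b were 95.9% identical over 435 aligned bases, so how reads were divided between these genes is uncertain. Their promoters are shown because they were alike in sequence while the counts of the genes were far apart. Over the 250 bases before the start site, 208 of 228 aligned bases were identical. Both are from RefSeq (GRCm38.p6), on the minus strand, at chr13:60936626-60936875 for Ctla2a and chr13:60897448-60897697 for Ctla2b, written 5′ to 3′ up to the start site. Capitals mark the motifs found in a search of both strands.
Ctla2a: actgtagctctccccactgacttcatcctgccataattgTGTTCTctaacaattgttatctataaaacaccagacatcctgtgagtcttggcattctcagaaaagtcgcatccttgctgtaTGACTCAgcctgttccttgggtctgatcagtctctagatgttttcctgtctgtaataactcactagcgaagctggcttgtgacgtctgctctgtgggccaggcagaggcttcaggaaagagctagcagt
Ctla2b: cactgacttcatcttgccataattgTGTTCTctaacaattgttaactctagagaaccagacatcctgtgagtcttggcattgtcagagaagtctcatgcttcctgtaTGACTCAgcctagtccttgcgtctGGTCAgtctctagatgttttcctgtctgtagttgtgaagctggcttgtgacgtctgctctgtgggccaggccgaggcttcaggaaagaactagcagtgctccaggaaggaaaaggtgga
TGTTCT is the other strand of the steroid receptor half-site AGAACA. It stood in both promoters, 211 bases before the start site in Ctla2a and 225 bases in Ctla2b, and is held by 16.1% of the 32851 promoter windows of the RefSeq table. TGACTCA, a match to the AP-1 site TGANTCA, also stood in both, at 129 and 143 bases, and 6.75% of the promoters hold such a site. The oestrogen receptor half-site GGTCA, held by 35.2%, was found in the Ctla2b window only, at 119 bases. The full oestrogen response element and the full progesterone and glucocorticoid response element, held by 0.0639% and 0.00913%, were found in neither window. The RefSeq table holds another start site window of Ctla2a, chr13:60936517-60936816, in which the AP-1 site stood 188 bases before the start site and the steroid half-site was not found.

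Ctla2a was near the limit of detection in Dpp4 Pi16 fibroblasts without hormone and became an abundant transcript with E2 and P4. It was at 6.64 CPM in VCD_Vehicle, 4.32 CPM in VCD_Low_PBDE and 3.24 CPM in VCD_High_PBDE. With E2 it was at 207 CPM without PBDE, 94.9 CPM with low PBDE and 16.9 CPM with high PBDE. With E2 and P4 it was at 752, 365 and 776 CPM in the same order of PBDE. The ranges of the 3 hormone states did not overlap in these 9 libraries, and VCD_High_PBDE_E2 was the lowest library with E2. The rise with E2 chose the gene, so its distance from no hormone is no separate result. The share of all genes with such a pattern was not counted.

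**Figure D1:**
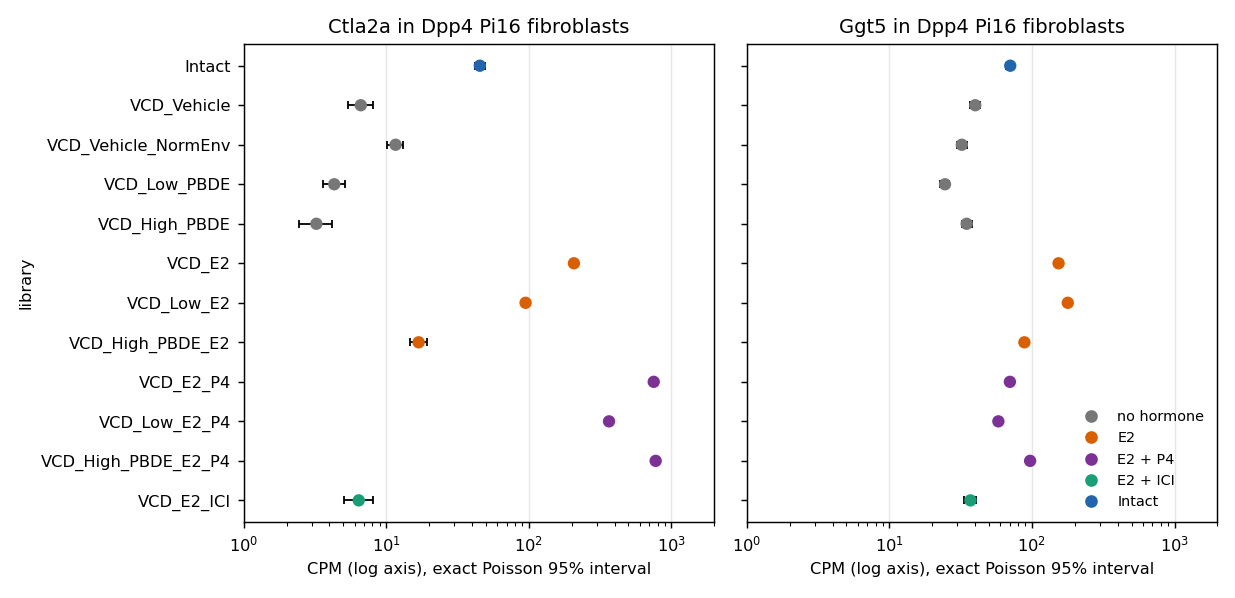
Level of Ctla2a (left) and Ggt5 (right) in the Dpp4 Pi16 fibroblasts of each of the 12 libraries, in CPM on a log axis, with bars for the exact Poisson 95% interval, which covers counting error only. Ctla2a ran from 3.24 to 776 CPM, while Ggt5 stayed between 24.6 and 178 CPM and was highest in VCD_Low_E2.

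Over the 9 libraries of the layout, the mean of the E2 and E2 with P4 libraries was 52.8-fold above no hormone for Ctla2a (log2 fold change 5.72, edgeR). This contrast chose the gene. The size depended on the processing: the log2 change was 4.79 with coarser clusters, 4.82 with a mitochondrial limit of 10% and 3.64 with the UMIs of a cell capped at 10, the last chosen after seeing the data, and up to 5.89 with the library tag as a covariate. It ranked 4th of the 12861 genes tested by the size of this change, between Klk1b21 (7.37) and Ptgds (4.96), both below 1 CPM on average. Of all genes, 11.1% passed the adjusted threshold of 0.05 in this contrast, 6.28% higher and 4.86% lower. The step from no hormone to E2 alone was 27.3-fold without PBDE, 18.0-fold with low PBDE and 4.22-fold with high PBDE, on CPM + 1. At low PBDE this step compared libraries with different tags.

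The Ctla2a transcripts sat in few cells. With E2, 27.2%, 18.9% and 9.26% of Dpp4 Pi16 fibroblasts held a Ctla2a UMI without, with low and with high PBDE, and with E2 and P4 the shares were 37.2%, 31.8% and 36.0%. Without hormone the 3 shares were 2.80% to 6.27%. Thinned to 5000 UMIs per cell, the shares were 0.783% to 3.64% without hormone, 4.19% to 15.8% with E2 and 21.2% to 25.6% with E2 and P4, so the order held at equal depth. Schwann-like cells had no Ctla2a UMI in any library: 0 of 149 cells, which allows a share of cells with a UMI of up to 2.01% and sets no limit on cells that express the gene, at medians of 3641 to 9608 UMIs per cell against 15243 to 23255 in the Dpp4 Pi16 fibroblasts.

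The highest count in a Dpp4 Pi16 fibroblast was 8 to 15 UMIs in the 3 libraries without hormone, 422, 239 and 30 UMIs with E2, and 844, 634 and 580 UMIs with E2 and P4. Cells with 10 or more Ctla2a UMIs made up at most 0.251% without hormone. With E2 they made up 9.17% (80 cells), 3.32% (34 cells) and 0.522% (4 cells), and with E2 and P4 13.6%, 10.4% and 14.5%. The tenth of cells with the most Ctla2a UMIs held 91.1% to 98.6% of them in the 6 libraries, Intact included, where more cells than these held a Ctla2a UMI. Markers in the cells with 10 or more UMIs were compared with cells without Ctla2a of the same library, both thinned to 5000 UMIs per cell, in the 5 libraries with at least 20 such cells. With E2, Pi16 was seen in 88.8% of the former and 87.6% of the latter in VCD_E2, and in 76.5% against 89.3% in VCD_Low_E2. With E2 and P4 it was seen in 98.7% against 91.9%, 98.7% against 92.6% and 99.1% against 94.4% without, with low and with high PBDE. Pi16 was thus seen more often in the high cells of 4 of the 5 libraries and less often in those of VCD_Low_E2. In the order VCD_E2, VCD_Low_E2, VCD_E2_P4, VCD_Low_E2_P4 and VCD_High_PBDE_E2_P4, Myoc was seen less often in the high cells of all 5 (17.5% against 36.9%, 23.5% against 30.6%, 52.2% against 53.9%, 50.7% against 59.0% and 39.6% against 48.0%). Pgr was seen more often in all 5 (12.5% against 6.42%, 35.3% against 12.2%, 6.37% against 3.37%, 3.95% against 2.61% and 12.3% against 4.93%). Ggt5 was seen in 78.8% against 29.2% in VCD_E2, in 79.4% against 35.2% in VCD_Low_E2, and in 33.1% against 22.8%, 30.9% against 21.4% and 40.6% against 22.5% with E2 and P4, so it was seen more often in the high cells of all 5 libraries. No T cell marker was seen in the 34 to 157 high cells of any of these libraries, which allows 1.91% to 8.82% of cells with a UMI, against 0.428% to 0.843% of the cells without Ctla2a. Endothelial markers were seen in 3.75% against 4.82% in VCD_E2, 5.88% against 7.41% in VCD_Low_E2, 10.2% against 4.78% in VCD_E2_P4, 3.29% against 3.96% in VCD_Low_E2_P4 and 12.3% against 6.21% in VCD_High_PBDE_E2_P4. They were thus seen more often in the high cells of 2 of the 5 libraries. The high cells were deeper, and in the same order the unthinned endothelial shares were 17.5% against 14.5%, 20.6% against 20.0%, 33.8% against 15.6%, 19.1% against 10.5% and 36.8% against 15.9%. The unthinned T cell marker shares were 2.50% against 1.61%, 8.82% against 3.09%, 3.19% against 3.51%, 1.97% against 2.92% and 0% against 1.71%. The part of these other cell types in the result was not tested.

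**Figure D2:**
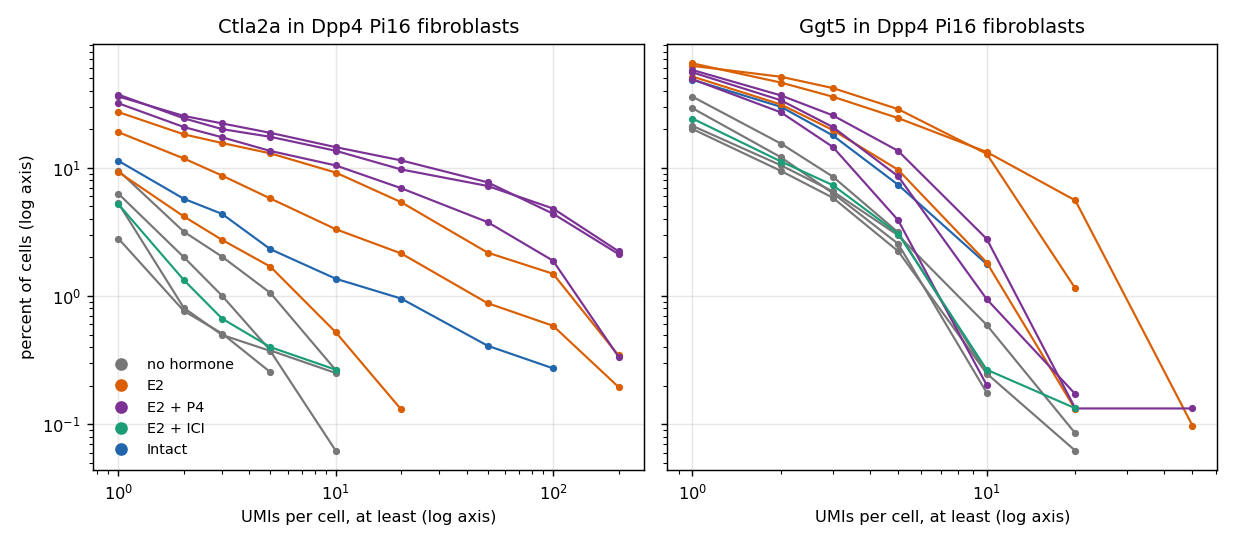
Percent of Dpp4 Pi16 fibroblasts (y axis, log) that hold at least the number of UMIs on the x axis (log) of Ctla2a (left) or Ggt5 (right), 1 line per library, with VCD_Vehicle_NormEnv among the lines without hormone. The Ctla2a lines of the E2 with P4 libraries reach past 100 UMIs per cell in 28 to 56 cells, whereas no cell reached 100 UMIs of Ggt5.

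Part of the E2 level came from 1 cluster of cells. A cluster led by Ptpn5, Akr1c18 and Pgr (the progesterone receptor), in which Ctla2a itself was the 5th leading gene, held 244 cells (28.0%) of VCD_E2 and 194 cells (18.9%) of VCD_Low_E2, 22 cells of VCD_E2_P4, 23 cells of Intact, and under 20 cells in each other library, VCD_High_PBDE_E2 included. It held 80.0% of the Ctla2a UMIs of VCD_E2 and 84.4% of those of VCD_Low_E2. Without it, Ctla2a was at 62.1 CPM and 19.6 CPM, beside 16.9 CPM in VCD_High_PBDE_E2, and Ggt5 was at 75.8 and 81.0 CPM beside 88.5 CPM. The cluster joined the Dpp4 Pi16 fibroblasts at the resolution used and not at a coarser one, where Ctla2a with E2 was at 19.0 to 70.9 CPM and Ggt5 at 61.3 to 72.6 CPM. When Dpp4 Pi16 fibroblasts were taken by 2 or more UMIs of each marker per cell, Ctla2a with E2 was at 22.6 to 223 CPM.

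The other clusters of Dpp4 Pi16 fibroblasts differed in both genes. Ctla2a and Ggt5 had been left out of the variable genes used for the grouping. These differences between clusters were not tested. Ctla2a was low in the 3136 cells led by Mrgprg and Krtdap, at 0.796 to 2.59 CPM without hormone and 11.4 to 16.0 CPM with E2 and P4. In the 3467 cells led by Akr1c18 and Myoc it was at 7.60 to 21.6 CPM without hormone, 36.6 to 108 CPM with E2 and 467 to 1001 CPM with E2 and P4. Ctla2a itself was among the leading genes of this cluster. Ggt5 was low in the Mrgprg cluster too, at 3.58 to 20.1 CPM over the 9 libraries, and was at 82.6 to 241 CPM in the 2057 cells led by Myoc and Scg3, in which the range without hormone (82.6 to 153 CPM) overlapped those with E2 (141 to 241 CPM) and with E2 and P4 (106 to 181 CPM). In 1151 fibroblasts led by Myoc, Fgf9 and Cilp, which had no name by the markers, Ctla2a was at 17.6 to 51.8 CPM without hormone, 74.1 to 289 CPM with E2 and 360 to 2115 CPM with E2 and P4.

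**Figure D3:**
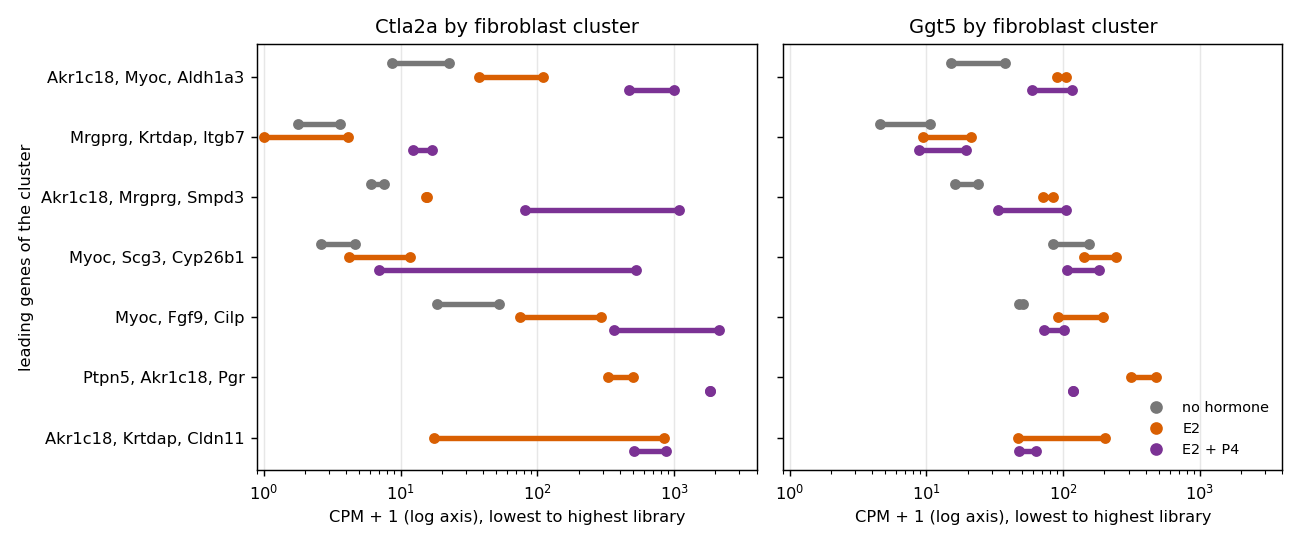
Level of Ctla2a (left) and Ggt5 (right) in 7 fibroblast clusters, named on the y axis by their leading genes, in CPM + 1 on a log axis, with a bar from the lowest to the highest library of each hormone state. The Ggt5 bars of the Mrgprg, Krtdap and Itgb7 cluster end at 20.1 CPM, and the Ctla2a bar of E2 with P4 reaches furthest right in each of the 7 clusters.

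Ggt5 was detected in every library and changed far less. In Dpp4 Pi16 fibroblasts it was at 40.0 CPM in VCD_Vehicle, 24.6 CPM in VCD_Low_PBDE and 34.8 CPM in VCD_High_PBDE. With E2 it was at 154, 178 and 88.5 CPM, and with E2 and P4 at 70.0, 58.1 and 97.1 CPM, in the order no, low and high PBDE. All 6 libraries with E2 were above the 3 without, which is part of the rise that chose the gene. E2 alone overlapped E2 with P4 only through the high PBDE pair. With the coarser clusters the ranges were 61.3 to 72.6 CPM with E2 and 52.1 to 89.4 CPM with E2 and P4, so the highest library then had E2 and P4. Cells with a Ggt5 UMI made up 20.1% to 35.9% without hormone, 51.5% to 65.2% with E2 and 49.1% to 57.9% with E2 and P4, beside 0% to 4.00% of T-like cells. Thinned to 5000 UMIs per cell, the shares were 9.40% to 14.7%, 27.1% to 39.4% and 23.4% to 28.6%.

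The E2 contrast of Ggt5 was 3.15-fold (log2 1.66) as the mean of both hormone states and 4.19-fold (log2 2.07) for E2 alone, where 6.5% of genes passed, and it too chose the gene. The first of these log2 changes ran from 1.47 with the library tag to 2.51 with finer clusters over the alternatives. It ranked 96th of the 12861 genes, between P4ha3 (1.66) and Ptgfr (1.66). Among genes with a mean of 20 CPM or more it ranked 13th. Above it there were Ctla2a, Tgm2, Irf7, Ifit3, Apol9a, Hbb-bs, Cthrc1, Cilp, Hba-a1, Isg15, Spon1 and P4ha3. Hbb-bs (1.98) and Hba-a1 (1.73) are haemoglobin genes, and the part of transcripts from other cells in this ranking was not tested.

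Adding P4 to E2 was not the contrast that chose the genes, but its libraries were part of that choice. In Dpp4 Pi16 fibroblasts its p-values are therefore not independent of the choice. In Dpp4 Pi16 fibroblasts Ctla2a was 8.07-fold higher with P4 (log2 3.01 ± 0.65 SE, 95% interval 1.51 to 4.52), and higher at all 3 PBDE levels, but this missed the threshold over all genes (adjusted p = 0.153, edgeR quasi-likelihood). Ggt5 was lower with P4 by the fit (log2 -0.82 ± 0.30, adjusted p = 0.333), lower without and with low PBDE and 1.10-fold higher with high PBDE. Only 15 of 12861 genes (0.117%) passed in this contrast. Single libraries moved both values and their calls. Without VCD_High_PBDE_E2, Ctla2a was at 2.15 (adjusted p = 0.0254) and Ggt5 at -1.21 (adjusted p = 0.0467). Without VCD_Low_E2_P4, Ctla2a was at 3.56 (adjusted p = 0.272). By DESeq2, Ctla2a was at 3.05 and passed (adjusted p = 0.00972). With the coarser clusters, Ctla2a was at 4.40 (adjusted p = 0.0160) and Ggt5 at 0.02 (adjusted p = 0.989), and with the UMIs of a cell capped at 10, an alternative chosen after seeing the data, Ctla2a was at 1.68 (adjusted p = 0.134).

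In the other fibroblasts Ctla2a was low without hormone and highest with E2 and P4. In Fabp4 fibroblasts it was at 2.03 to 2.68 CPM without hormone, 3.40 to 15.7 CPM with E2 and 21.2 to 67.7 CPM with E2 and P4. The 3 ranges did not overlap in these 9 libraries, and the share of all genes with such a pattern was not counted. VCD_Vehicle_NormEnv, outside the layout, was at 4.09 CPM in Fabp4 fibroblasts, within the E2 range. In Tnc fibroblasts it was at 0.593 to 1.40, 0.951 to 5.12 and 39.6 to 59.5 CPM. In Gdf10 fibroblasts it was at 1.10 to 1.32, 1.99 to 3.22 and 5.72 to 46.4 CPM. The first 2 ranges overlapped in Tnc fibroblasts and not in Gdf10 fibroblasts. They rest on few UMIs per library, too few to set these populations apart. In Gdf10 fibroblasts there were 2 to 5 UMIs without hormone and 6 to 15 with E2. In Tnc fibroblasts there were 1 to 8 and 3 to 21.

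**Figure D4:**
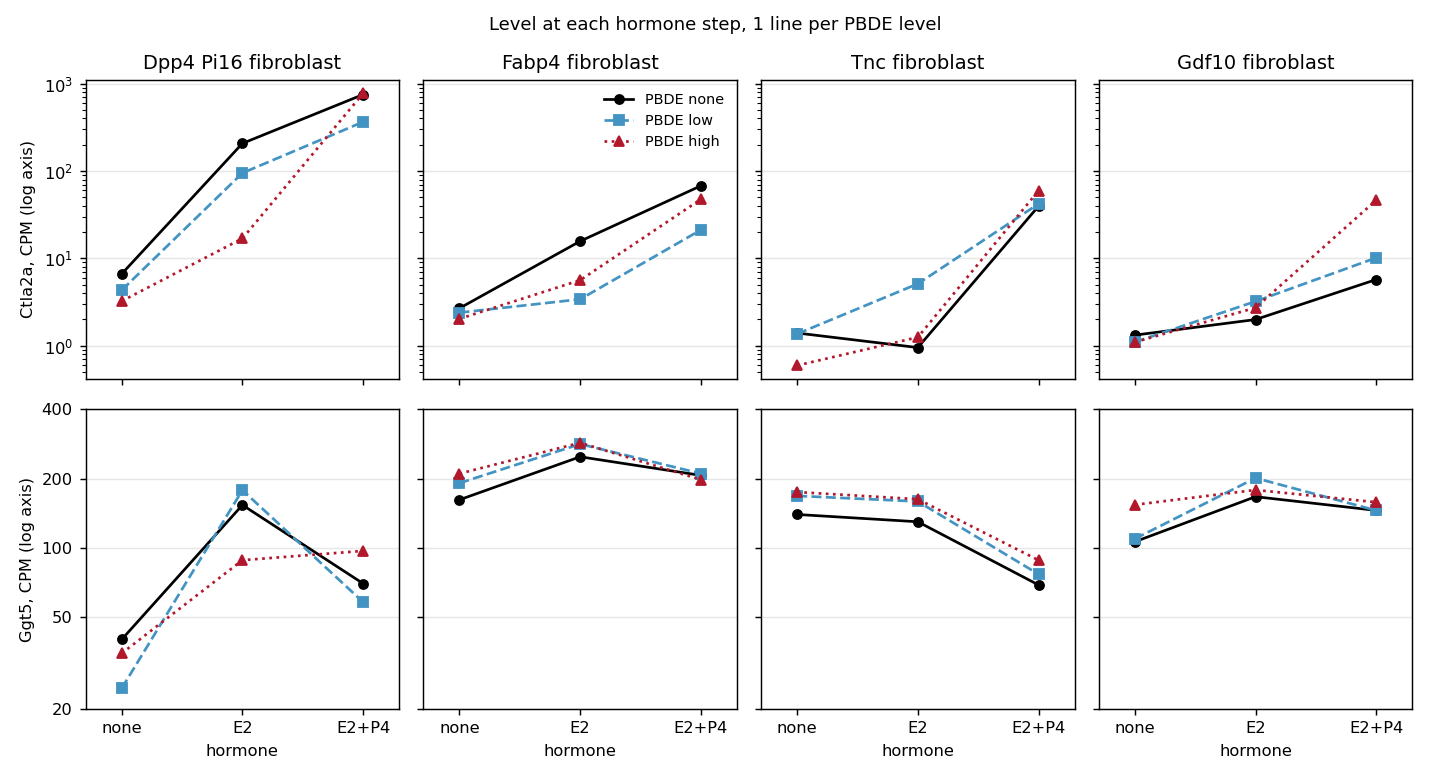
Level of Ctla2a (top row) and Ggt5 (bottom row) in CPM on a log axis at each hormone state, 1 column per fibroblast population and 1 line per PBDE level, each point 1 library. All 12 Ctla2a lines go up from E2 to E2 with P4. The Ggt5 lines go down at that step in all columns, except for high PBDE in Dpp4 Pi16 fibroblasts.

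By edgeR over all genes, Ctla2a rose with P4 added to E2 in Fabp4 (log2 2.51 ± 0.27, adjusted p = 0.0168), Gdf10 (2.50 ± 0.42, adjusted p = 0.0424) and Tnc fibroblasts (4.19 ± 0.36, adjusted p = 0.000942), where 0.936%, 0.24% and 5.89% of genes passed. Single cells carried much of this. The cell with the most Ctla2a UMIs held 23.1% to 40.7% of the UMIs of the E2 with P4 libraries in Fabp4 fibroblasts, 48.8% to 91.7% in Tnc and 7.14% to 90.6% in Gdf10 fibroblasts. Without that cell the E2 with P4 levels in Tnc fibroblasts were 20.3, 4.97 and 4.96 CPM, 2 of which lay below the highest E2 library, and in Gdf10 fibroblasts the highest level of 46.4 CPM became 4.35 CPM. With the UMIs of a cell capped at 10, the rise was 1.72 in Fabp4 (adjusted p = 0.0283), 1.64 in Gdf10 (adjusted p = 0.0431) and 1.97 in Tnc fibroblasts (adjusted p = 0.0315). The call in Gdf10 fibroblasts was lost without any of 5 libraries (VCD_E2, VCD_Low_E2, VCD_Low_E2_P4, VCD_High_PBDE_E2 or VCD_High_PBDE_E2_P4, log2 1.62 to 3.04), and in Fabp4 fibroblasts without VCD_E2, VCD_E2_P4 or VCD_High_PBDE_E2_P4 (2.29 to 2.94). The Fabp4 call was also lost with per-cell gates (1.46, adjusted p = 0.114) and with the coarser clusters (2.67, adjusted p = 0.257), and the Gdf10 call with per-cell gates and with finer clusters.

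Transcripts of Dpp4 Pi16 fibroblasts were also counted at low levels in these populations. With E2 and P4, Ctla2a in Fabp4 fibroblasts was at 5.79% to 9.00% of its level in Dpp4 Pi16 fibroblasts, beside 1.32% to 1.89% for Pi16, 4.55% to 7.83% for Dpp4 and 0.626% to 1.36% for Akr1c18. In Tnc fibroblasts it was at 5.27% to 11.5%, beside 3.38% to 4.28%, 4.35% to 5.90% and 0.498% to 1.41%. In Gdf10 fibroblasts it was at 0.760% to 5.98%, beside 4.79% to 6.67%, 12.6% to 14.9% and 1.45% to 5.11% for the same markers. With doublet-like cells removed, the rise with P4 in Fabp4 fibroblasts missed the threshold (1.90, adjusted p = 0.358), while those in Gdf10 and Tnc fibroblasts still passed. The part of free RNA in these values was not tested.

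Against no hormone, the mean of the E2 and E2 with P4 libraries was higher for Ctla2a in Fabp4 (log2 2.84 ± 0.31, adjusted p = 0.000769), Gdf10 (2.40 ± 0.55, adjusted p = 0.0297) and Tnc fibroblasts (2.94 ± 0.49, adjusted p = 0.000871), with 18.2%, 4.09% and 36.7% of genes past the threshold. For E2 alone it rose in Fabp4 fibroblasts (1.58 ± 0.35, adjusted p = 0.0387), and missed the threshold in Gdf10 (1.15 ± 0.69, adjusted p = 0.493) and Tnc fibroblasts (0.84 ± 0.64, adjusted p = 0.393), with 4.93%, 1.02% and 18.8% of genes called. In Gdf10 fibroblasts the call was lost without VCD_E2, VCD_Low_PBDE, VCD_Low_E2 or VCD_High_PBDE (1.74 to 2.54). With doublet-like cells removed, the change in Fabp4 fibroblasts was 1.42 (adjusted p = 0.0553), in Tnc fibroblasts 2.34 (adjusted p = 0.0567) and in Gdf10 fibroblasts 2.06 (adjusted p = 0.0677).

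Ggt5 was higher in the Fabp4, Gdf10 and Tnc fibroblasts than in Dpp4 Pi16 fibroblasts without hormone, and moved by small steps. In Fabp4 fibroblasts it was at 162 to 210 CPM without hormone, 249 to 287 CPM with E2 and 198 to 211 CPM with E2 and P4. In Gdf10 fibroblasts it was at 106 to 154, 167 to 201 and 146 to 158 CPM. In Tnc fibroblasts it was at 140 to 175, 130 to 163 and 69.1 to 88.5 CPM, so E2 alone overlapped no hormone and all 3 libraries with P4 lay below.

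Ggt5 fell when P4 was added in Tnc fibroblasts (log2 -0.96 ± 0.11, 0.512-fold, adjusted p = 0.00185), where 5.89% of genes passed. With the coarser clusters this change was -0.42 and missed the threshold (adjusted p = 0.0613). In Fabp4 fibroblasts it was at -0.40 ± 0.09 (adjusted p = 0.0802) and in Gdf10 fibroblasts at -0.24 ± 0.12 (adjusted p = 0.612). In 1 fit over the named fibroblast populations, their P4 changes of Ggt5 were not told apart (lowest adjusted p = 0.102, edgeR, with 4.62% of genes called). Against no hormone Ggt5 rose in Gdf10 (0.51 ± 0.11, adjusted p = 0.0239) and Fabp4 fibroblasts (0.29 ± 0.08, adjusted p = 0.0429) and fell in Tnc fibroblasts (-0.65 ± 0.09, adjusted p = 0.000298), where E2 alone was at -0.17 (adjusted p = 0.294). Of all genes, 4.09%, 18.2% and 36.7% passed against no hormone in Gdf10, Fabp4 and Tnc fibroblasts, and 18.8% in Tnc fibroblasts for E2 alone. The Fabp4 call was lost when any of 7 of the 9 libraries was left out (0.22 to 0.30, the exceptions being VCD_High_PBDE and VCD_High_PBDE_E2_P4), and the Gdf10 call without VCD_Vehicle, VCD_E2_P4, VCD_Low_PBDE or VCD_Low_E2. With the coarser clusters the Tnc change against no hormone was 0.06 (adjusted p = 0.649).

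The clusters behind the names shifted with hormone. Of the Tnc fibroblasts, a cluster led by Igfbp2, Tnc and Crabp1 held 99.4% to 99.8% without hormone and 3.03% to 15.1% with E2 and P4, where a cluster led by Igfbp2, Nrgn and Stra6 held the rest. Within the former, Ggt5 was at 140 to 177 CPM without hormone and 154 to 248 CPM with E2, so the ranges overlapped and the highest library had E2. Within the latter it was at 86.2 to 140 CPM with E2 and 67.2 to 82.6 CPM with E2 and P4. Of the Fabp4 fibroblasts, a cluster led by H19 held 1.02% to 2.11% without hormone and 50.8% to 72.7% with E2 and P4. Of the Dpp4 Pi16 fibroblasts, the cluster led by Akr1c18 and Myoc held 3.79% to 16.1% without hormone in the layout. It held 20.9% to 32.8% with E2, 33.5% to 67.4% with E2 and P4, and 19.5% in VCD_Vehicle_NormEnv. The part of these shifts in the hormone changes of both genes was not tested. The values above compare these populations as wholes.

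ICI and the intact ovary each stood on 1 library and were not tested. VCD_E2_ICI and VCD_E2, the library with E2 alone and no PBDE, carried different library tags. Given with E2, ICI left Ctla2a in Dpp4 Pi16 fibroblasts at 6.42 CPM (exact Poisson 95% interval 5.03 to 8.07), within the range of the no-hormone libraries (3.24 to 11.6 CPM with VCD_Vehicle_NormEnv) and below all 3 E2 libraries. Ggt5 was at 37.0 CPM (33.6 to 40.7) with ICI, also within the range without hormone, which was 24.6 to 40.0 CPM. A Ctla2a UMI was found in 5.19% of these cells and a Ggt5 UMI in 24.2%. With the coarser clusters Ggt5 was at 10.8 CPM with ICI, beside 9.62 to 54.0 CPM in the 5 libraries without hormone, Intact included. With finer clusters it was at 14.8 CPM, below the range of 15.6 to 69.1 CPM in those 5 libraries.

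In the Intact library Ctla2a was at 45.4 CPM (41.9 to 49.1), above the libraries without hormone and between the E2 libraries, with 1.36% of the cells at 10 or more UMIs. Ggt5 was at 70.4 CPM (66.1 to 75.0), above the libraries without hormone and below E2 alone. VCD_Vehicle_NormEnv held 11.6 CPM of Ctla2a (10.2 to 13.2), the highest of the libraries without hormone, and 32.2 CPM of Ggt5 (29.8 to 34.8). The intervals cover counting error only.

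PBDE changed neither gene past the threshold in Dpp4 Pi16 fibroblasts. For Ctla2a the fit gave -0.97 (95% interval -2.40 to 0.46, adjusted p = 0.966) with low PBDE and -1.27 (-2.81 to 0.28, adjusted p = 0.333) with high PBDE, with 0% and 0.171% of genes called. Leaving out 1 library gave -1.47 to -0.24 with low PBDE and -2.67 to -0.34 with high PBDE. The former moved by over 1.5 times without VCD_E2, VCD_Low_E2 or VCD_Low_E2_P4, and the latter without VCD_E2, VCD_High_PBDE_E2 or VCD_High_PBDE_E2_P4. For Ggt5 it gave -0.19 (-0.87 to 0.49, adjusted p = 0.978) and -0.14 (-0.82 to 0.55, adjusted p = 0.833). These intervals are wide, so an equal level was not shown. In the other fibroblasts, where low PBDE called 0%, 0.0185% and 0% and high PBDE 0.334%, 0.563% and 0.0986% of genes in Fabp4, Gdf10 and Tnc fibroblasts, neither gene passed. Ctla2a was at 2.24 with high PBDE in Gdf10 fibroblasts (adjusted p = 0.0532), where 1 cell held 87 of the 96 UMIs of VCD_High_PBDE_E2_P4. That change passed with no low-count filter (2.22, adjusted p = 1.2e-08), with coarser clusters (2.41, adjusted p = 0.0333) and without VCD_Vehicle, VCD_Low_PBDE, VCD_High_PBDE or VCD_High_PBDE_E2 (2.27 to 2.65). It was 0.32 (adjusted p = 0.889) without VCD_High_PBDE_E2_P4, 1.195 without VCD_E2_P4 and 0.46 with capped counts, and turned to -0.43 with gates and -0.88 with the 10% limit. Ctla2a was at -1.57 with low PBDE in Fabp4 fibroblasts (adjusted p = 0.999), where DESeq2 gave -1.47 (adjusted p = 0.00128) and the fit with no low-count filter also passed (-1.56, adjusted p = 0.0117). Over the alternatives this change ran from -1.74 to -0.32, the smallest with the library tag as a covariate. The 2 library tags of the deposit ran with PBDE in the 9 libraries of the layout: the 3 without PBDE carried one, the 3 with high PBDE the other, and low PBDE both, so tag and exposure can be separated only through the low PBDE libraries. Among these, VCD_Low_PBDE carried the former tag, and VCD_Low_E2 and VCD_Low_E2_P4 the latter. At low PBDE the tag thus ran with E2, and tag and E2 cannot be told apart there.

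The order of cell types was set by medians over libraries of all hormone states. Ctla2a was highest in T-like cells, with a median of 938 CPM over the libraries, followed by NK and innate lymphoid-like (590), dendritic-like (135), B-like (95.5) and macrophage-like cells (63.0 CPM), then Dpp4 Pi16 (27.8), Fabp4 (4.80), Gdf10 (2.34) and Tnc fibroblasts (1.38 CPM). The B-like cells were led by plasma cell genes. Among neighbours, T exceeded NK and innate lymphoid cells (adjusted p = 0.00879), these exceeded dendritic cells (adjusted p = 0.00586), and Fabp4 exceeded Gdf10 fibroblasts (adjusted p = 0.00879) in exact sign-flip permutation tests over libraries, two-sided, with 12 pairs tested over both genes. Dendritic and B cells (adjusted p = 0.0938), B cells and macrophages (0.803) and Gdf10 and Tnc fibroblasts (0.310) were not told apart by the same exact permutation tests. With coarser clusters or with doublet-like cells removed, 1 neighbouring pair passed for Ctla2a in place of 3. Endothelial-like cells, with 9 to 212 cells per library, held 61.8 to 1347 CPM and were left out of the order. The place of Dpp4 Pi16 fibroblasts depended on hormone: with E2 and P4 they were at 365 to 776 CPM, above dendritic-like cells (103 to 125 CPM) in the same libraries.

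**Figure D5:**
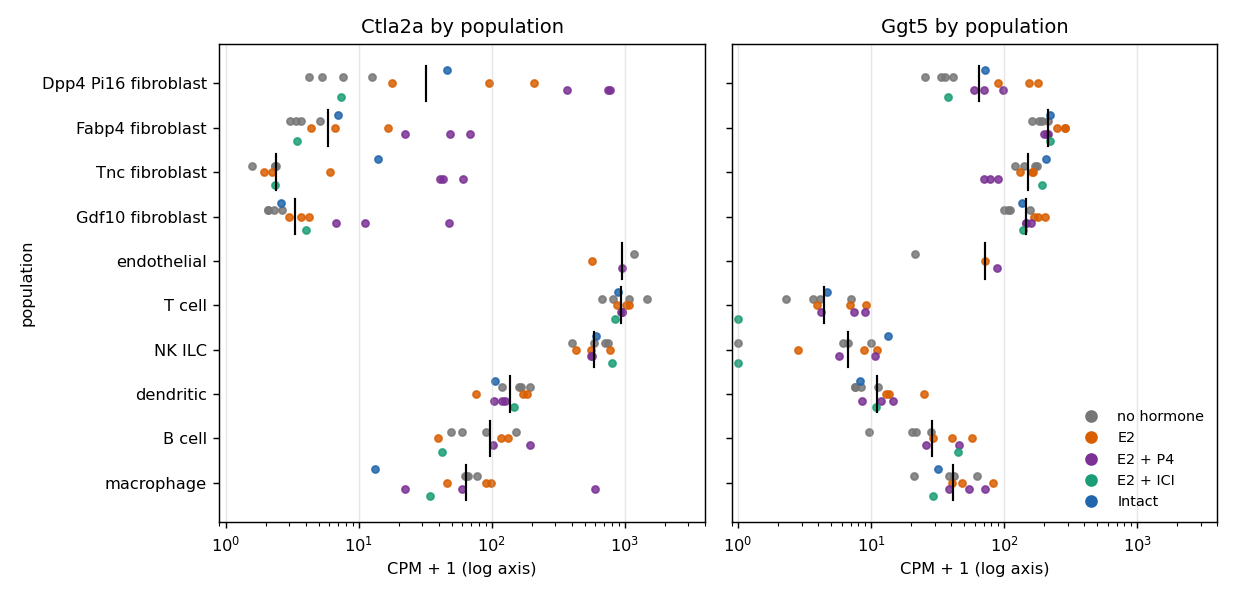
Level of Ctla2a (left) and Ggt5 (right) by cell population in CPM + 1 on a log axis, each point 1 library with at least 20 cells, coloured by hormone state, with a line at the median. T-like cells hold the highest Ctla2a level of the populations in the order, and Fabp4 fibroblasts the highest Ggt5 level.

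Ggt5 was highest in Fabp4 fibroblasts (median 211 CPM), followed by Tnc (149), Gdf10 (146) and Dpp4 Pi16 fibroblasts (63.8), macrophage-like (39.9), B-like (27.7), dendritic-like (10.1), NK and innate lymphoid-like (5.68) and T-like cells (3.44 CPM). Fabp4 exceeded Tnc fibroblasts (adjusted p = 0.00586), B exceeded dendritic cells (adjusted p = 0.00938) and dendritic exceeded NK and innate lymphoid cells (adjusted p = 0.0410, exact permutation tests). Tnc and Gdf10 fibroblasts (0.656), macrophages and B cells (0.0871) and NK and T cells (0.534) were not told apart by adjusted p in these exact permutation tests. The number of Ggt5 pairs past the threshold was 2 in place of 3 when any of 9 of the 12 libraries was left out, the exceptions being Intact, VCD_High_PBDE_E2_P4 and VCD_E2_ICI, and of the 3 the pair of dendritic with NK and innate lymphoid cells had the highest adjusted p. Pairs with Dpp4 Pi16 fibroblasts were not tested. With E2 and P4 the Tnc range (69.1 to 88.5 CPM) lay below the Gdf10 range (146 to 158 CPM), which the pooled medians do not show.

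In T-like cells the Ctla2a ranges of the hormone states overlapped, at 670 to 1464 CPM without hormone, 868 to 1072 CPM with E2 and 928 to 953 CPM with E2 and P4. The E2 change was 0.07 (95% interval -0.33 to 0.47, adjusted p = 1.00) and the P4 change -0.05 (-0.51 to 0.40, adjusted p = 0.996), with 0% and 0.0146% of genes called. In macrophage-like cells Ctla2a was at 598 CPM in VCD_Low_E2_P4, against 12.2 to 97.7 CPM in the other 11 libraries, and the P4 change was 0.77 (adjusted p = 0.752, with 0.00902% of genes called) with it and -0.93 (adjusted p = 0.929) without it. Ggt5 in macrophage-like cells was at 61.2 to 81.4 CPM with high PBDE and 20.0 to 39.2 CPM without PBDE, and the change of 1.12 ± 0.16 missed the threshold (adjusted p = 0.0825), with 0.018% of genes called, and passed it by DESeq2 (1.14, adjusted p = 0.000698) and with no low-count filter (1.11, adjusted p = 0.00424). Over the alternatives it ran from 0.51, with doublet-like cells removed, to 1.31.

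Transcripts of other cell types were summed in the Dpp4 Pi16 fibroblasts. The 6 T cell markers summed to 0.429 to 2.46 CPM per library, with Ctla2a 3.41 to 3.71 times that sum without hormone and 244 to 943 times with E2 and P4. The 8 endothelial markers summed to 4.66 to 27.1 CPM, with 13.4 to 26.8 CPM without hormone, 10.2 to 27.1 CPM with E2 and 9.03 to 17.7 CPM with E2 and P4. The 7 markers of NK and innate lymphoid cells, Gata3 and Il1rl1 among them, were highest in the libraries where the Ptpn5 cluster was largest. They summed to 54.7 CPM in VCD_E2 and 43.6 CPM in VCD_Low_E2. In the other 10 libraries, VCD_High_PBDE_E2 and those with E2 and P4 included, they summed to 6.57 to 17.4 CPM. Ctla2a was 1.58 to 3.79 times that sum in the E2 libraries, and 0.0370 to 0.0755 times that sum in the NK and innate lymphoid-like cells of the same libraries.

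Over the 12 libraries, the genes closest to Ctla2a in Dpp4 Pi16 fibroblasts were Irf7, Ifit3, Apol9a, Bst2 and Spon1, among 5447 genes with a mean of 20 CPM or more. The first 4 are known as interferon-response genes. For both genes this profile includes the E2 rise that chose them, and other genes with a large rise lie close by this measure. Irf7, Ifit3 and Apol9a ranked 3rd, 4th and 5th by the E2 change among genes with a mean of 20 CPM or more. The likeness is thus a description and no separate result. The fit was loose: Irf7 differed from Ctla2a by 1.66 (root mean square of centred log2 levels), while Ctla2a itself varied by 2.71. For Ggt5 the closest were Mmp19 (0.22), P4ha3 (0.35), Ccdc80 (0.43), Csprs (0.43) and Spon1 (0.44), against its own variation of 0.86, and Mmp19, a matrix metalloproteinase, was at 21.0 to 31.9 CPM without hormone, 64.1 to 127 CPM with E2, 42.1 to 67.2 CPM with E2 and P4 and 28.6 CPM with ICI. Over the 9 populations, Il18r1, Tes, H2-Q6, Gimap7 and Kif21b were closest to Ctla2a (0.87 to 0.96) and Ctsf, Ctsk, Il1r1, Hspg2 and Tceal8 to Ggt5 (0.30 to 0.35).

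Of 16 cysteine proteases and inhibitors listed, 13 could be tested in Dpp4 Pi16 fibroblasts, and 4 rose with E2 as the mean of both hormone states and 0 fell, with a median log2 change of 0.23 against -0.0048 over all genes, of which 6.28% rose. Ctsh, an aminopeptidase of lysosomes, went from 142 to 212 CPM without hormone to 310 to 400 CPM with E2 (log2 0.98, adjusted p = 0.00144). The others were Lgmn (0.60), Ctsb (0.29) and Ctsz (0.24). For E2 alone 2 of the 13 rose and 0 fell, beside 3.76% and 2.74% of all genes. Ctsl, which encodes cathepsin L, was at 1476 to 1857 CPM in the 9 libraries (0.15, adjusted p = 0.183). With P4 added, 0 of the 13 passed, beside 0.117% of all genes.

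Ctla2b was at 0.112 to 0.299 CPM without hormone, 2.02, 3.22 and 0.235 CPM with E2 and 0.512 to 0.768 CPM with E2 and P4. Its E2 change of 2.43 missed the threshold (adjusted p = 0.0527) for the mean of both hormone states and passed it for E2 alone (3.09, adjusted p = 0.0400), on 42, 76 and 3 UMIs. Like Ctla2a it was lower with high PBDE among the E2 libraries, but unlike Ctla2a it was lower with P4 than in VCD_E2 and VCD_Low_E2.

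Of 28 genes of glutathione and leukotriene metabolism, 21 could be tested, and 2 rose with E2 as the mean of both hormone states: Anpep (0.49, adjusted p = 0.00931), an aminopeptidase of the cell surface, and Gss (0.47, adjusted p = 0.0269), which encodes glutathione synthetase. Over all genes 6.28% rose. For E2 alone 1 of the 21 rose, near the 3.76% of all genes. For the mean of both hormone states the median was 0.15 and 0 fell, beside 4.86% of all genes. With P4 added 0 passed, beside 0.117% of all genes. Ggt1, the neighbour and relative of Ggt5, was at 0 to 0.212 CPM and could not be tested. Dpep1, a dipeptidase that acts on the products of gamma-glutamyltransferases, was at 393 to 722 CPM over the 9 libraries (0.15, adjusted p = 0.495), and Ltc4s, the leukotriene C4 synthase, was at 1.23 to 16.9 CPM.

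Esr1, the oestrogen receptor, was at 64.3 to 97.8 CPM in Dpp4 Pi16 fibroblasts of the 9 libraries (E2 change 0.05, adjusted p = 0.834). Pgr and Greb1, both known as targets of this receptor, were at 7.84 to 28.2 and 3.19 to 11.3 CPM without hormone, 17.5 to 45.1 and 13.7 to 37.4 CPM with E2, 6.18 to 16.6 and 5.08 to 11.2 CPM with E2 and P4, and 2.55 and 1.67 CPM with ICI. Their changes missed the threshold for the mean of both hormone states (0.21, adjusted p = 0.812, and 1.10, adjusted p = 0.223), for E2 alone (1.02, adjusted p = 0.288, and 1.87, adjusted p = 0.102) and for P4 added to E2 (-1.62, adjusted p = 0.311, and -1.54, adjusted p = 0.344).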

How the data were processed

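Count matrices of single cells (10x Chromium 3′ v3), 1 per library, were used as deposited. Per the labels and the methods, the authors made the UMI counts with Cell Ranger 3.1.0 on mm10, after lymph nodes and dead cells had been removed. Barcodes below 500 genes or 1000 UMIs, or above 5% mitochondrial UMIs, were dropped. They were clustered with igraph 0.11.9 (3000 variable genes, 30 components, 20 neighbours, resolution 1.0), and clusters were named from marker lists. Fibroblasts in which Cspg4, Pecam1, Cd52, Ptprc, Krt14 or Epcam was counted were left out. Doublets were removed only in an alternative.

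Counts were summed per library and population (at least 20 cells) and tested over 9 libraries with edgeR 4.0.16 (quasi-likelihood, hormone plus PBDE, R 4.3.3, Benjamini-Hochberg adjustment, threshold 0.05), after a test on simulated data. DESeq2 1.42.0 was an alternative. Each hormone and PBDE combination was 1 library, so no spread between libraries of the same treatment could be measured. The p-values rest on what the added hormone and PBDE terms leave over. That remainder mixes library noise, library tag and any joint effect of hormone and PBDE. The SE of an edgeR change was worked back from its log2 change and its test statistic, and the 95% intervals of edgeR changes were built from that SE. Both are thus approximate. Intervals of single libraries are exact (95%) and cover counting error only. The members and lists were chosen with earlier results of these data known. Genes named were the members, list genes, those ranked beside the members, and the 5 closest in pattern. The capped counts and the tests between populations were chosen after seeing the data.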

Additional observations from a re-analysis of the deposited data

Results flagged for a closer look

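The change of Ggt5 with E2, as the mean of the E2 and the E2 with P4 libraries against no hormone, differed between fibroblast populations in 1 fit over their summed counts, a test chosen after seeing the data. The change in Tnc fibroblasts minus that in Fabp4 fibroblasts was -0.954 on the log2 scale (adjusted p = 0.00187, edgeR), with 19.2% of genes past the threshold. The change in Tnc minus that in Gdf10 fibroblasts was -1.173 (adjusted p = 0.000227, edgeR), with 26.5% of genes past it. With coarser clusters the change within Tnc fibroblasts was 0.056, and the difference was not tested there. For E2 alone the change in Tnc fibroblasts was -0.17 (adjusted p = 0.294, edgeR), and the clusters that make up the Tnc fibroblasts shifted with hormone. In the same fit, the E2 change of Ggt5 in Gdf10 minus Fabp4 fibroblasts missed the threshold (0.22, adjusted p = 0.654, edgeR). With P4 added to E2, neither gene differed past the threshold between fibroblast populations. The lowest adjusted p (edgeR) was 0.102 for Ggt5 (Tnc minus Gdf10, -0.73) and 0.396 for Ctla2a (Tnc minus Dpp4 Pi16, 1.27). Of all genes, 4.62% and 11.6% passed there.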

How the results depend on the processing

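Values are log2 changes unless CPM is named. The main changes were those with E2 and P4 in fibroblasts and with PBDE in Dpp4 Pi16 fibroblasts. Outside the omission of single libraries, 168 of 199 values of these changes kept direction and side of the threshold and 31 did not. Of the values of the other tested changes, 301 kept both, 33 turned direction and 6 gained a call. Of the levels of single libraries 27 of 42 moved, and of the counts of neighbouring pairs 3 of 12. For P4 added to E2 in Dpp4 Pi16 fibroblasts, Ctla2a missed the threshold in the main fit. It passed with DESeq2 (3.05), coarser clusters (4.40) and a 10% mitochondrial limit (4.38), and Ggt5 turned to 0.023 and 0.052 with the latter pair. The libraries of this contrast were part of the choice of the genes, so none of these calls is independent of it. The Ctla2a rise in Fabp4 fibroblasts was lost with per-cell gates (1.46), coarser clusters (2.67) and doublets removed (1.90), and in Gdf10 fibroblasts with gates (2.32) and finer clusters (2.42). The Ggt5 fall with P4 in Fabp4 fibroblasts passed with no count filter (-0.41), DESeq2 (-0.41) and finer clusters (-0.45), and was lost in Tnc fibroblasts with coarser clusters (-0.42).

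For E2 against no hormone, Ctla2a lost its call with doublets removed in Fabp4 (1.42) and Tnc fibroblasts (2.34), with E2 alone in Tnc (0.84) and Gdf10 (1.15), and in Gdf10 also with the library tag (2.54), gates (1.27), finer clusters (1.71) and doublets removed (2.06). Ggt5 lost its call in Fabp4 with the tag (0.29), DESeq2 (0.28), gates (0.23), the 10% limit (0.26) and capped counts (0.21), in Gdf10 with the tag (0.42) and gates (0.38), and in Tnc with E2 alone (-0.17), and turned to 0.056 in Tnc with coarser clusters.

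Among uncalled changes the direction turned for P4 in T-like cells (Ctla2a 0.18 with doublets removed, 0.032 capped), dendritic-like cells (Ggt5 0.045, finer clusters) and macrophage-like cells (Ctla2a -1.48, doublets removed; Ggt5 0.085, finer clusters, and 0.12, capped). With E2 it turned for Ctla2a in T-like cells (-0.098 coarser, -0.053 finer, -0.13 at the 10% limit, -0.040 without doublets) and macrophage-like cells (-0.43 with the tag, -0.75 without doublets). With high PBDE it turned for Ctla2a in Fabp4 (0.66 tag, 0.081 capped), Gdf10 (-0.43 gates, -0.88 at the 10% limit) and Tnc fibroblasts (-0.80 coarser, -0.15 without negative selection, -0.60 capped), and for Ggt5 in Gdf10 (-0.058 tag) and dendritic-like cells (1.42 without doublets). With low PBDE it turned for Ctla2a in Gdf10 (-2.56 at the 10% limit), Tnc (-1.70 coarser, -1.24 without doublets), T-like (0.096 coarser, 0.037 at the 10% limit, 0.0034 without doublets), dendritic-like (0.17 tag) and macrophage-like cells (-0.56 tag, -0.45 without doublets), and for Ggt5 in Gdf10 (-0.071 tag) and dendritic-like cells (-0.42 tag, -0.0027 finer).

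Leaving out each library gave, for P4, Ctla2a 2.15 to 3.62 in Dpp4 Pi16, 2.29 to 2.94 in Fabp4 and 1.62 to 3.04 in Gdf10 fibroblasts, and Ggt5 -1.21 to -0.40 in Dpp4 Pi16 and -0.50 to -0.31 in Fabp4. For E2 it gave Ggt5 0.22 to 0.35 in Fabp4 and 0.42 to 0.65 in Gdf10, and Ctla2a 1.74 to 2.93 in Gdf10. Ggt5 in Dpp4 Pi16 fibroblasts was at -0.51 to 0.25 with high and -0.64 to 0.0085 with low PBDE. Uncalled changes spanned 0 for Ctla2a with E2 in T-like (-0.20 to 0.37) and macrophage-like cells (-0.43 to 1.28), with P4 in T-like (-0.19 to 0.15), dendritic-like (-0.57 to 0.075) and macrophage-like cells (-0.93 to 1.55), with high PBDE in Tnc (-1.22 to 0.63), dendritic-like (-0.040 to 0.51) and macrophage-like cells (-1.58 to 0.096), and with low PBDE in Gdf10 (-0.33 to 1.45), T-like (-0.30 to 0.092), dendritic-like (-0.68 to 0.021) and macrophage-like cells (-0.24 to 2.17), and for Ggt5 with P4 in macrophage-like cells (-0.12 to 0.11) and low PBDE in Gdf10 (-0.012 to 0.20).

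In Dpp4 Pi16 fibroblasts, Ctla2a moved to 9.87 (gates) and 10.1 CPM (finer) in VCD_E2_ICI, to 78.4, 50.2, 56.5, 67.4 and 36.8 CPM in Intact and to 14.6, 14.8, 14.7, 17.1 and 9.58 CPM in VCD_Vehicle_NormEnv with gates, the 10% limit, coarser, finer and thinned cells. Ggt5 moved to 22.5, 12.5, 33.1, 32.2, 10.8 and 14.8 CPM in VCD_E2_ICI with gates, the 10% limit, doublets removed, no negative selection, coarser and finer clusters, to 53.2, 63.5, 54.0 and 64.9 CPM in Intact with the 10% limit, doublets removed, coarser and thinned, and to 26.7, 18.9, 19.8, 22.7 and 28.6 CPM in VCD_Vehicle_NormEnv in the order used for Ctla2a. Of the neighbours in the order of levels, 1 pair passed for Ctla2a with coarser clusters or doublets removed and 1 for Ggt5 with doublets removed, against 3 each. The causes were not tested. No paired analysis of treatment groups was possible because each group holds 1 library, so replicate numbers pair no samples. Cell populations, in contrast, were compared within libraries. Hormone states were instead compared within PBDE levels, which the fit holds as a term.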
